A study of Sus scrofa domesticus with 150 samples.

Results

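Gene expression was compared between the edge and the center of skin wounds on day 2 after wounding. The 12 samples were chosen by their labels, as the 6 edge and the 6 center samples of day 2 among 150 samples in all, and each edge sample was paired with the center sample of its own wound. The animals were female Yorkshire-mix domestic pigs that each carried circular full-thickness excisional wounds of 2 cm, dressed with Telfa Clear and Tegaderm and given nothing else before biopsy, and neither the labels nor the methods name a genotype or an age. On day 2 wounds A and L of animals 4, 5 and 6 were sampled, so the 6 wounds came from 3 animals. These animals also gave 3 samples of the skin excised on day 0 and, from wounds F and G, 6 edge and 6 center samples on day 4, which are used below for levels before wounding and for a later time. Wounds of an animal are not separate animals, so p-values over the 6 wounds measure mostly the spread between wounds.

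A full-thickness wound removes the epidermis with its hair follicles and glands and much of the dermis, and exposes the fat beneath. In the first days a clot forms, neutrophils and then monocytes enter from the blood, and keratinocytes at the margin loosen their contacts, divide behind the margin and migrate inward, while fibroblasts and vessels later build granulation tissue in the bed. Keratinocytes make the keratins, the desmosomes and the lipids of the skin barrier, basal cells hold to the basement membrane, and suprabasal cells leave the cell cycle and cornify. A biopsy of the margin can hold old epidermis beside new, and a biopsy of the bed can hold clot, inflammatory cells, vessels, fat and whatever lies below.

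The 12 libraries held 14378320 to 22827155 counts each. Levels are given as counts in every 1000000 of a library's total (CPM), with the total scaled by edgeR's trimmed mean of M values, so they compare a gene between samples and not genes with each other. For each gene the lowest, the median and the highest of the 6 samples of a location are given. Differences are log2 fold changes of the edge over the center with the standard error of the paired fit, so a positive value is higher at the edge, and adjusted p-values are those of edgeR's quasi-likelihood F-test, corrected by Benjamini and Hochberg's method for all genes tested. In bulk tissue, fewer cells of a type and less RNA per cell cannot be told apart.

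The centers of wound L in animals 4 and 6 stood apart from the other 10 libraries by skeletal muscle RNA. Genes of a list of 59 skeletal muscle markers, of which 57 were in the table, took 14.1% of the counts in the center of animal 4 wound L and 4.52% in that of animal 6 wound L, and from 0.0154% to 0.0305% in the other 10. ACTA1, the skeletal muscle actin, was at 39279 and 8979 CPM in these centers and at no more than 0.785 CPM in the other 10. Of the 57 genes, 55 were higher in both of these centers than in every other library of day 2. With the wound as a block, 1 of the 27 muscle genes that passed the filter on low counts, MYL3 (-0.38 ± 0.11 (SE), adjusted p = 0.0327), differed between the locations, and it was not called without these wounds (adjusted p = 0.102) or without the block (adjusted p = 0.106). Without the block 24 muscle genes were called toward the center, and without these wounds 3 were called toward the edge and 2 toward the center. With the block the list's median log2 fold change was -2.15, or -0.30 without these wounds. Genes of this list are therefore kept apart from the results below, and counts that change without these 2 wounds by more than 1.5 times are given both ways.

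**Figure D1:**
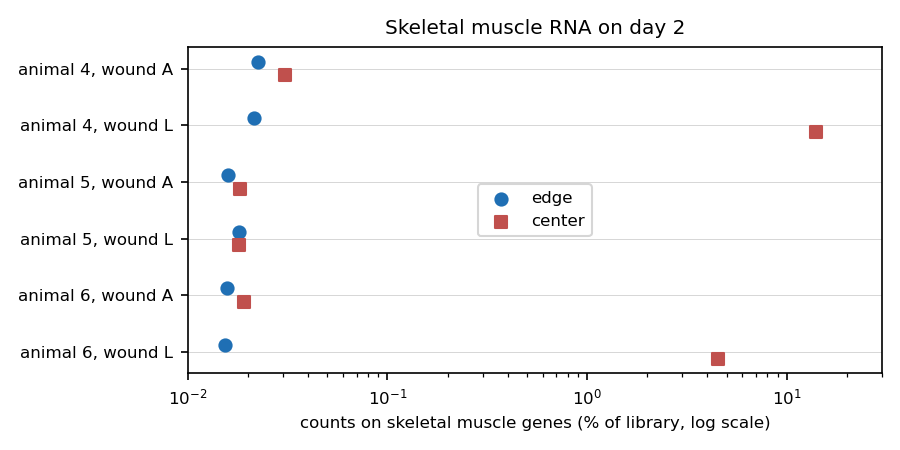
Skeletal muscle RNA in the 12 libraries of day 2. The horizontal axis (log scale) is the percent of a library's counts on the 57 skeletal muscle genes found, with 1 point per library, the edge (circles) and the center (squares) of a wound side by side. The centers of animal 4 wound L (14.1%) and animal 6 wound L (4.52%) lie far to the right of the other 10 libraries (0.0154% to 0.0305%).

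Of 14652 genes tested, 5035 (34.4%) differed between edge and center at an adjusted p below 0.05. Of these, 2631 (18.0%) were higher at the edge and 2404 (16.4%) in the center. The same direction held in 6 of 6 wounds for 2478 of the genes higher at the edge and 1983 of those higher in the center. The sizes were not alike. At least 16-fold differences were fitted for 552 genes higher at the edge and 2 higher in the center, and at least 2-fold differences for 1645 and 1036. A total of 30 genes higher at the edge had no count in any center, while none of those higher in the center was without a count at every edge. The values of the locations did not overlap for 1984 genes (13.5%) higher at the edge and 881 (6.01%) higher in the center. Without the wounds with muscle RNA, 1997 of the calls at the edge and 1602 of those in the center were made again.

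**Figure D2:**
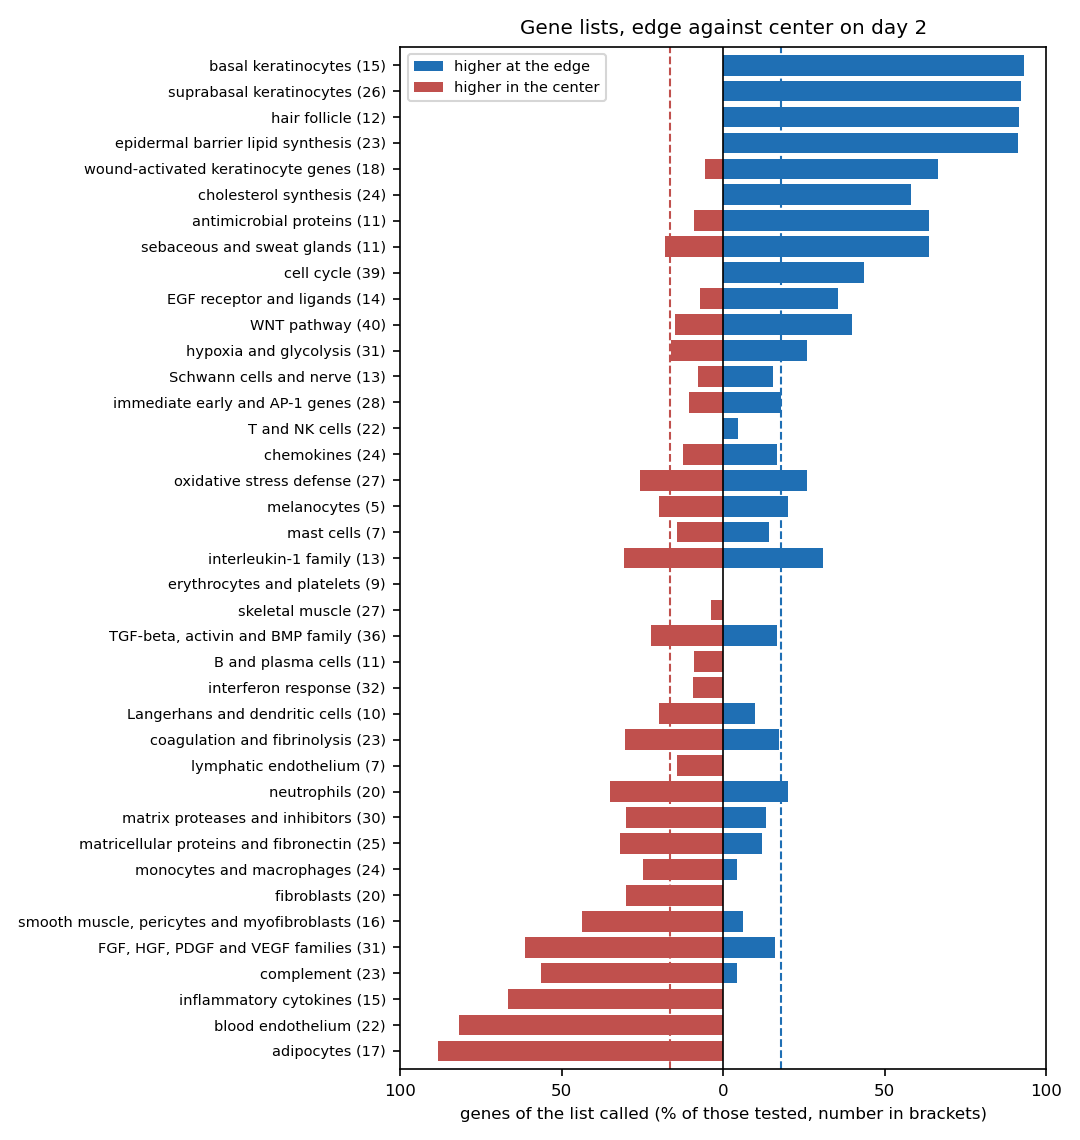
Share of each gene list that differed between edge and center. Bars to the right give the percent of a list's tested genes that were higher at the edge, bars to the left the percent higher in the center, both at an adjusted p below 0.05, and the dashed lines give the percent over all genes tested (18.0% and 16.4%). Epidermal lists (suprabasal keratinocytes 24 of 26 tested) lie at the right, and adipocytes (15 of 17) and blood endothelium (18 of 22) at the left.

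Where none of a list's genes is given below for a direction, an unadjusted p below 0.05 was found for 0 of its genes in that direction and DESeq2 called 0, except in the cytokine list, with 1 gene at the edge by both measures, and the lymphatic list, with 1 gene at the edge by the unadjusted p. Calls of some of the genes named below rested on the wounds with muscle RNA or on the block. Besides those given at their place, COL5A1, CSF3R, EREG, FOXM1, IL1A, MC5R, MT2A, PRX, RRM2, WIF1 and WNT6 were called only with the muscle wounds (adjusted p without them of 0.0502 for EREG to 0.146 for PRX). Without the block C7, CSF3R, CX3CL1, CXCL13, FOS, MC5R, MS4A1, PLK1, PTGS2, RGS4, THBS1, TPX2 and TREM1 were not called (adjusted p of 0.0510 for TPX2 to 0.363 for PTGS2). FASN, GAPDH, SLPI and TIMP1, not called with the block, were called toward the center without it, and SLPI also without the muscle wounds. With the wounds of an animal summed, so that the 3 animals were the units, C1QB, C1QC, COL6A3, CSF3, CSF3R, CXCL13, FCN1, FOS, FOXM1, GPX2, IFI6, IL1A, IL6, INHBA, IRF1, ITGA5, LCN2, LIF, MASP1, MC5R, MS4A1, MT1A, MT2A, MYBPH, MYL3, NQO1, PRX, PTGS2, SOAT1, TGFB3, THBD, THBS1, TNC and TREM1 were not called.

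The largest differences lay in epidermal genes. Of 15 basal keratinocyte markers, 14 were higher at the edge and none in the center, with a median log2 fold change of 4.96, and of 26 suprabasal markers 24 and none, with a median of 8.49. Over all genes tested the share higher at the edge was 18.0%. The basal markers summed to 24006 to 40338 CPM at the edge, 279 to 1054 CPM in the center and 19791 to 26942 CPM in the day 0 skin of the same animals. KRT5 (ENSSSCG00025059933), the keratin of basal cells, ranged from 9102 to 14043 CPM (median 10378) at the edge and from 5.42 to 93.9 CPM (median 13.2) in the center, against 6987 to 10289 CPM in the skin. Edge and center were far apart in every wound, with a log2 fold change of 9.45 ± 0.59 (SE), adjusted p = 2.03e-05. TP63 (ENSSSCG00025001065), the transcription factor that sets the epithelial fate, was at 182 to 291 CPM (median 216) and at 0 to 2.73 CPM (median 0.333), again with no overlap (8.41 ± 0.90 (SE), adjusted p = 2.81e-04). COL17A1, a hemidesmosome collagen that anchors basal cells, differed by 8.96 ± 0.41 (SE), adjusted p = 7.44e-06, and PERP and TRIM29 by 9.41 and 9.24. Some other desmosome and basement membrane genes differed less or were not called. The integrin subunits ITGA6 and ITGB4 had log2 fold changes of 2.68 and 2.72, the cytolinker gene DST had -0.32 (adjusted p = 0.522), and desmoplakin, DSP, had -0.30 (adjusted p = 0.154). DSP was low throughout, at 13.6 to 22.0 CPM at the edge, 15.1 to 22.1 CPM in the center and 13.1 to 16.6 CPM in the skin. Whether the count table captures this gene in full was not tested.

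Among suprabasal genes, KRT10 (ENSSSCG00025042112), the keratin of differentiating cells, took the largest mean share of all counts at the edge, 1.76% ± 0.108 (SD, n = 6). It ranged from 15999.8 to 19786 CPM (median 17748) at the edge and from 12.5 to 105 CPM (median 19.1) in the center, against 10412 to 20597 CPM in the day 0 skin. The highest center lay far below the lowest edge. DSG1 and DSC1, cadherins of the upper desmosomes, were at 2178 to 3352 CPM (median 2422) and 1205 to 1939 CPM (median 1515) at the edge and at 0.128 to 5.87 CPM (median 1.39) and 0.424 to 3.08 CPM (median 0.587) in the center. Their log2 fold changes were 10.72 ± 0.75 (SE), adjusted p = 3.44e-05 and 10.81 ± 0.46 (SE), adjusted p = 5.85e-06. Involucrin, IVL, a cornified envelope protein, had a log2 fold change of 8.48, the desmosomal plaque gene PKP1 10.26 and the protease gene CASP14, which acts in filaggrin breakdown, 10.26. Every edge was above every center for each of these genes.

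The 12 named genes with the largest log2 fold changes toward the edge were SLC6A14, C5orf46, KLK11, a gene matched to FLG2 (ENSSSCG00025060263), SPTLC3, AADACL2, SERPINB12, P2RY4, DSC1, KRT78, DSG1 and LIPN, from 11.80 down to 10.71. For genes without a center count the fitted size is not a measured ratio, so their place in this order is uncertain. SLC6A14 (ENSSSCG00025044064), an amino acid transporter, had no count in any of the 6 centers and was at 14.2 to 30.4 CPM (median 24.8) at the edge, at least 158-fold higher than the level that 3 counts per center library would give. KLK11, a skin protease, P2RY4, a nucleotide receptor, KRT78, a keratin of upper layers, and LIPN, a lipase of the granular layer, also had no center count and were at least 103-fold, 80.5-fold, 78.4-fold and 72.7-fold higher. SPTLC3, a subunit of serine palmitoyltransferase at the head of ceramide synthesis, was at 83.4 to 127 CPM (median 108) at the edge and had 5 counts over the 6 centers. In the day 0 skin SPTLC3 was at 179 to 262 CPM and SERPINB12, an inhibitor of trypsin-like proteases, at 136 to 191 CPM, above all 6 edges in both cases (SERPINB12 at the edge 42.0 to 96.8 CPM (median 56.2)). KRT78 and LIPN went the other way, with edge medians of 9.28 and 10.5 CPM against 0.889 to 4.81 CPM and 3.38 to 8.32 CPM in the skin. Levels against the skin were not tested.

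Genes of the barrier lipids were likewise higher at the edge. Of 23 genes that make or process the ceramides and fatty acids of the cornified layer, 21 were higher at the edge and none in the center, with a median log2 fold change of 6.38. LIPN, with no count in any center, was higher by at least 72.7-fold. LIPK and ABCA12, which loads lipids into lamellar bodies, had 9.77 and 9.53. CERS3, the ceramide synthase for very long acyl chains, was at 95.9 to 162 CPM (median 108) at the edge and at 0 to 0.529 CPM (median 0.162) in the center, and the lipoxygenase gene ALOXE3 differed by 7.99. ABHD5, which is not particular to the epidermis, was not called, with -0.35.

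Genes that keratinocytes switch on after injury were at the edge too. Of 18 tested genes of that list, 12 were higher at the edge and 1, the fibronectin receptor subunit ITGA5, in the center (-0.96 ± 0.17 (SE), adjusted p = 0.00325). Without the muscle wounds these were 12 and 2. The keratin genes matched to KRT6B and KRT6C, which are close copies so that reads can be shared between them, had 9.02 and 9.09. KRT6C was at 4499.9 to 14096 CPM (median 6637) at the edge and at 6.06 to 51.4 CPM (median 8.61) in the center, and in the day 0 skin at 606 to 1163 CPM, below every edge. SERPINB3, a serpin of squamous epithelium, was also above the skin at every edge, with 20.4 to 98.8 CPM (median 41.7) at the edge, 0 to 0.337 CPM (median 0.0245) in the center and 0.296 to 2.79 CPM in the skin (8.88 ± 0.73 (SE), adjusted p = 7.56e-05). DSG3, a cadherin of lower layers, had 10.04, and the gap junction genes GJB2 and GJB6 had 8.27 and 6.54. Unlike KRT6C and SERPINB3, DSG3 overlapped the skin, with 435 to 884 CPM at the edge and 465 to 605 CPM in the skin. ITGB6, the subunit of an integrin that activates latent TGF-beta, was at 5.21 to 11.8 CPM (median 7.95) at the edge and at no more than 0.647 CPM in the center. IL36A and IL36RN, a keratinocyte cytokine and the antagonist of its receptor, were higher at the edge by 5.34 and 8.53, and IL36A was at 1.15 to 5.29 CPM (median 2.41) there against 0 to 0.437 CPM in the skin. FOSL1, PLAUR, ITGAV, SLPI and TNIP3, which leukocytes and mesenchymal cells also express, were not called and lay between -1.14 (SLPI) and 0.27 (FOSL1).

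**Figure D3:**
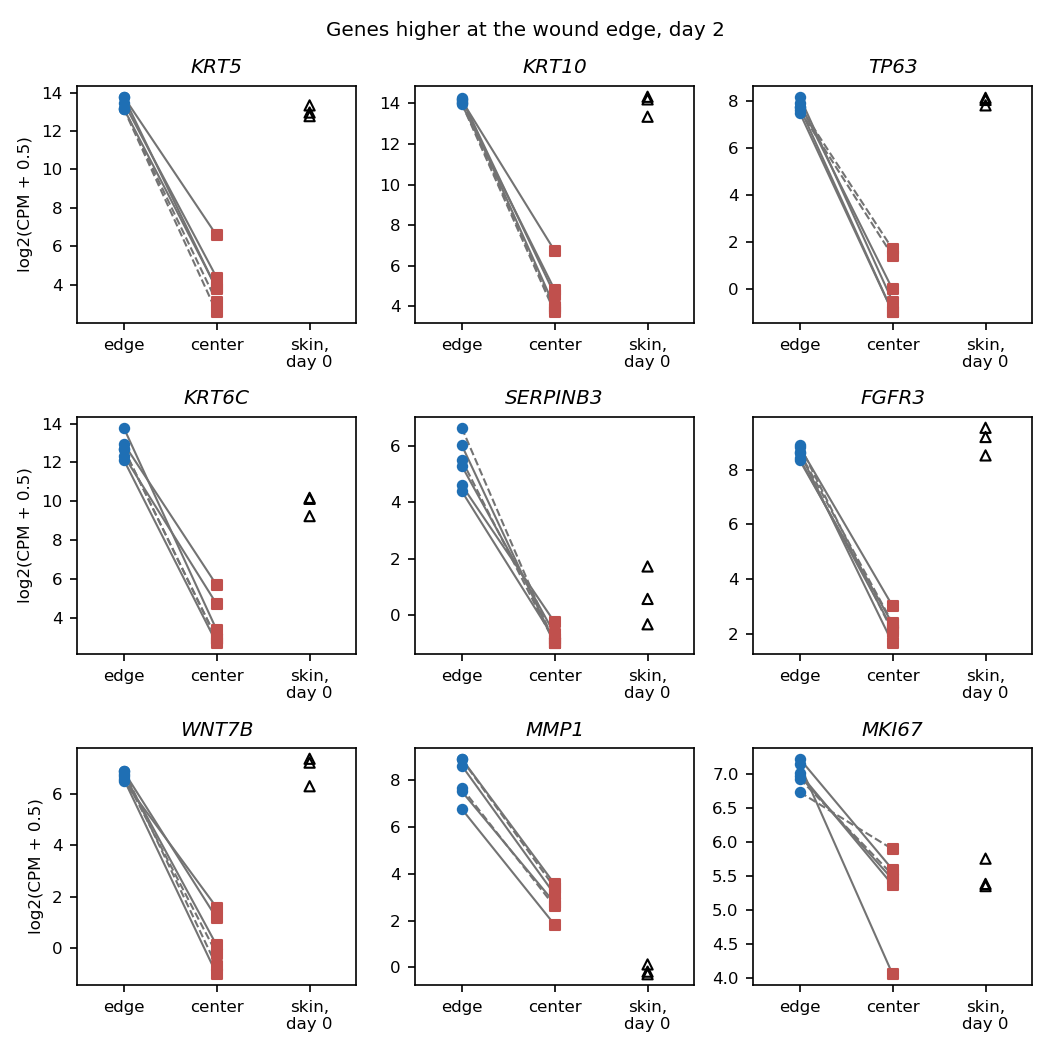
Levels of 9 genes higher at the edge. Each line joins the edge (circles) and the center (squares) of 1 wound, dashed for the wounds with muscle RNA in the center, the vertical axis is log2(CPM + 0.5), and open triangles are the day 0 skin of animals 4, 5 and 6. For KRT5, KRT10, TP63, KRT6C, SERPINB3, FGFR3, WNT7B and MMP1 the edges lie above all centers without overlap, and for MKI67 the lowest edge (106 CPM) lies above the highest center (58.8 CPM).

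Appendages and other residents of the skin were traced by their markers. Of 21 hair follicle genes found, 12 passed the filter and 11 of these were higher at the edge. Over all genes tested 18.0% were higher at the edge and 16.4% in the center. Genes near 0 in the centers pass the filter mainly through the edge samples. The direction of the follicle count was thus largely set beforehand, and it is not separate support. The follicle genes summed to 50.6 to 3912 CPM at the edge and to 4.91 to 18.2 CPM in the center, against 5675 to 22079.5 CPM in the day 0 skin, so even the highest edge was below the skin. LGR5, a receptor of follicle stem cells, was at 0.733 to 16.0 CPM (median 8.15) at the edge, 0 to 0.303 CPM (median 0.0664) in the center and 33.3 to 61.1 CPM in the skin. LHX2, a transcription factor of the same cells, had a log2 fold change of 6.70 ± 0.85 (SE), adjusted p = 7.00e-04. FOXN1, which acts in follicle and epidermal differentiation, had 8.95, and the inner root sheath keratin KRT71, at 0 in 1 edge and at 1311 CPM in another, had 7.21. Of 11 gland markers 7 were higher at the edge, led by FA2H (9.54), a fatty acid hydroxylase, PIP (7.77), a secreted protein of sweat glands, and the transcription factor ELF5 (7.45), and 2 in the center, MC5R (-1.30) and SOAT1 (-1.03), against 6 and 1 without the muscle wounds. CD207, the langerin of Langerhans cells, was higher at the edge (2.09 ± 0.40 (SE), adjusted p = 0.00515), at 0.727 to 3.54 CPM (median 2.87) against 0.242 to 0.963 CPM (median 0.591), and the highest center was above the lowest edge. Of the 10 tested genes of Langerhans and dendritic cells it was the only one higher at the edge, and 2 were higher in the center, or 3 without the muscle wounds. Of 7 mast cell genes 1 was called in each direction, and without the muscle wounds none at the edge and 2 in the center. Of the melanocyte markers TYR had no count in any sample of day 2 and PMEL was at no more than 1.29 CPM, and 1 gene was called in each direction among 5 tested, or 1 at the edge alone without the muscle wounds. Of 13 tested Schwann cell and nerve genes, ERBB3 (4.20) and PRX (1.04) were higher at the edge and NGFR (-1.28) in the center, against 1 in each direction without the muscle wounds, while SOX10, which defines these cells, was not called (0.81). ERBB3 is also an epidermal receptor and stands on the list of EGF receptors.

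Receptors of epithelial growth factors were higher at the edge. The EGF-family receptor genes EGFR, ERBB2 and ERBB3 differed by 2.04, 2.21 and 4.20. EGFR was at 261 to 305 CPM (median 278) at the edge and at 40.8 to 88.4 CPM (median 66.4) in the center, with no overlap. Of the ligands, EREG and TGFA were higher at the edge (2.24 ± 0.47 (SE), adjusted p = 0.00793 and 1.91 ± 0.38 (SE), adjusted p = 0.00669). AREG, HBEGF and BTC were not called, at 0.98, 0.63 and -0.56. LRIG1, a feedback inhibitor of the receptors, was the only gene of the 14 tested that was higher in the center (-0.68), and it was not called without the muscle wounds.

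In the FGF, HGF, PDGF and VEGF families 19 of 31 genes were higher in the center and 5 at the edge, against 16.4% and 18.0% of all genes. FGFR3 and FGFR2, whose epithelial forms bind ligands from the dermis, and MET, the HGF receptor, were higher at the edge, with 6.45, 2.14 and 2.13, and so was FGFBP1 (8.26), which frees FGFs from the matrix. FGFR3 ranged from 323 to 473 CPM (median 395) at the edge and from 2.65 to 7.57 CPM (median 4.29) in the center. FGFBP1 ranged from 68.7 to 161 CPM (median 82.3) at the edge, above the 13.8 to 23.7 CPM in the day 0 skin. The ligands of these families that differed were higher in the center. FGF18 had a log2 fold change of -2.62, IGF1 -2.14, FGF10 -2.06, FGF2 -1.70, HGF -1.52 and VEGFC -1.11. IGF1, a growth factor that stromal cells and macrophages make, was at 57.9 to 113 CPM (median 86.3) in the center, 14.2 to 26.3 CPM (median 20.9) at the edge and 3.05 to 8.95 CPM in the skin, so both wound locations were above the skin. FGF2, a mitogen of fibroblasts and endothelium, was at 30.4 to 57.0 CPM (median 39.5) in the center and 7.85 to 17.1 CPM (median 14.6) at the edge, with no overlap. VEGFA, the main growth factor of vessels, was not called (-0.13, adjusted p = 0.612), and it ranged from 29.3 to 76.2 CPM (median 43.8) at the edge and from 33.2 to 74.8 CPM (median 45.9) in the center.

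Genes of the WNT pathway differed in both directions. Of 40 tested genes of the pathway 16 (40%) were higher at the edge and 6 (15%) in the center, against 18.0% and 16.4% of all genes. The ligands WNT3A, WNT7B, WNT10A, WNT16, WNT3, WNT4 and WNT6 were all higher at the edge, WNT3A, with no count in any center, by at least 50.2-fold and the others from 2.38 for WNT6 to 7.22 for WNT7B. WNT7B was at 89.3 to 118 CPM (median 106) at the edge, 0 to 2.50 CPM (median 0.476) in the center and 77.5 to 163 CPM in the skin. AXIN2, a common target of the pathway, was higher at the edge by 1.46 ± 0.29 (SE), adjusted p = 0.00639, and with 12.2 to 24.3 CPM (median 16.1) it was there below the 27.4 to 37.8 CPM of the skin. SFRP2, SFRP5 and SFRP1, secreted proteins that bind WNTs, were higher in the center, at -2.40, -2.01 and -1.43. SFRP2 was at 169 to 813 CPM (median 427) in the center, 20.6 to 309.8 CPM (median 85.4) at the edge and 8.38 to 28.4 CPM in the skin, and although the ranges of the locations overlapped, the center was higher in 6 of 6 wounds. The inhibitors SOSTDC1 and WIF1, which are expressed in epithelium, were higher at the edge (9.26 and 3.94).

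Of 36 tested genes of the TGF-beta, activin and BMP family 6 were higher at the edge and 8 in the center, shares of the same order as over all genes. BMP7, BMP3 and BMP2, ligands of the BMP branch, were higher at the edge, with 6.50, 6.01 and 2.00, together with the receptor genes BMPR1A (0.90) and BMPR1B (2.06). BMP7 was at 68.1 to 118 CPM (median 99.3) at the edge and at 0.383 to 2.99 CPM (median 0.952) in the center. SMAD6 (-1.34) and ID3 (-1.19), which BMP signals induce, and INHBA, the activin A subunit (-1.24), were higher in the center. INHBA was not called without the muscle wounds (adjusted p = 0.0620) or without the block (adjusted p = 0.0918). TGFB1 and TGFB2 were not called, at -0.44 and 0.16, and TGFB3 was slightly higher in the center (-0.37 ± 0.10 (SE), adjusted p = 0.0245), but not without the muscle wounds (adjusted p = 0.0847).

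Cholesterol synthesis genes were higher at the edge where they differed. Of 24 genes 14 were higher there and none in the center, with a median log2 fold change of 0.82. HMGCS1, an enzyme at the start of the pathway, ranged from 198 to 546 CPM (median 316) at the edge and from 65.1 to 90.1 CPM (median 77.4) in the center, against 199.6 to 290.5 CPM in the skin (2.06 ± 0.19 (SE), adjusted p = 1.28e-04). DHCR7, an enzyme at its end, differed by 2.26. INSIG1, which responds to sterols, was not called, at -0.33.

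Cell cycle genes were higher at the edge in part. Of 39 genes 17 were higher at the edge and none in the center, with a median of 0.95, and without the muscle wounds or without the block the number was 12. MKI67, the proliferation antigen, was at 106 to 148 CPM (median 126) at the edge, 16.1 to 58.8 CPM (median 44.1) in the center and 40.2 to 53.4 CPM in the skin (1.64 ± 0.27 (SE), adjusted p = 0.00236). Each edge was above each center and above the skin. CENPF and BUB1, of the kinetochore and the spindle checkpoint, were higher at the edge by 1.64 and 1.57, and BUB1 was not called without the muscle wounds (adjusted p = 0.0599). Beside MKI67 and the transcription factor FOXM1, the calls were genes of the spindle and of mitosis, such as PLK1 (1.06) and AURKA (1.09), and RRM1, RRM2 and TYMS, which make nucleotides. The replication licensing genes MCM2, MCM3, MCM4, MCM5, MCM6 and MCM7 were not called, at -0.13 to 0.31, and neither was PCNA, the replication clamp (0.19). PCNA ranged from 107 to 138 CPM (median 128) at the edge and from 85.6 to 137 CPM (median 106) in the center, all above the 57.0 to 66.0 CPM of the skin. TOP2A was not called at 0.96 (adjusted p = 0.136), although it was higher at the edge in 6 of 6 wounds.

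Inflammatory cytokines were higher in the center where they differed. Of 15 tested genes of the list 10 were higher in the center and none at the edge, with a median of -1.07. Without the muscle wounds 8 were called and without the block 4. IL6 ranged from 3.92 to 71.0 CPM (median 33.0) in the center and from 0.667 to 25.0 CPM (median 4.99) at the edge, against 0 to 0.164 CPM in the skin. The ranges overlapped, and the center was higher in 6 of 6 wounds (-2.69 ± 0.60 (SE), adjusted p = 0.0103). IL11 and LIF, cytokines that share a receptor subunit with IL6, and CSF3, the neutrophil growth factor, were higher in the center, at -3.02, -1.98 and -2.00. Without the block none of IL6, IL11, LIF and CSF3 was called (adjusted p of 0.100, 0.0547, 0.0981 and 0.102), and LIF was not called without the muscle wounds (adjusted p = 0.0693). CSF1, the macrophage growth factor, was at 121 to 254 CPM (median 157) in the center and 63.5 to 121 CPM (median 89.5) at the edge (-0.93 ± 0.18 (SE), adjusted p = 0.00526). PTGS2, the inducible cyclooxygenase, was higher in the center, at -0.79. TNF was not called (0.18) and was at no more than 4.85 CPM in any wound sample.

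Of 13 tested genes of the interleukin-1 family list, which does not hold the IL36 genes given above, 4 were higher at the edge and 4 in the center, and 2 and 1 were called without the muscle wounds and 2 and 2 without the block. IL1RL2, the receptor of the keratinocyte cytokines of this family, was higher at the edge by 4.85 ± 0.30 (SE), adjusted p = 1.97e-05, and was at 37.2 to 70.2 CPM (median 48.4) there, 1.11 to 2.87 CPM (median 1.35) in the center and 54.4 to 131 CPM in the skin. The decoy receptor IL1R2 was higher at the edge (1.73) and the signalling receptor IL1R1 in the center (-1.21). IL1R1 was at 119 to 199 CPM (median 196) in the center and 62.4 to 109.8 CPM (median 80.2) at the edge, with no overlap. IL1A was higher at the edge by 1.51, in 5 of 6 wounds, and was not called without the block (adjusted p = 0.0732). IL1B was not called (0.019 ± 0.75 (SE), adjusted p = 0.987). It ranged from 0.424 to 61.2 CPM (median 11.7) at the edge and from 2.40 to 70.6 CPM (median 13.9) in the center, so the wounds differed more from each other than the locations did, and it was at 0 to 0.109 CPM in the skin.

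Chemokines differed gene by gene, with 4 of 24 higher at the edge and 3 in the center, about the shares over all genes, and 4 and 5 without the muscle wounds. CCL2, which draws monocytes, ranged from 189 to 931 CPM (median 318) in the center and from 46.4 to 169 CPM (median 113) at the edge, against 4.51 to 7.89 CPM in the skin. The lowest center was above the highest edge (-1.72 ± 0.32 (SE), adjusted p = 0.00426). CCL19, a ligand for lymphocytes and dendritic cells, and CXCL12, a stromal chemokine, were higher in the center, at -1.78 and -1.55. CCL28, an epithelial chemokine, was higher at the edge by 9.05, CXCL11, induced by interferon, by 3.99, CXCL13 by 1.96 and CX3CL1 by 1.26. CXCL11 was at 24.7 CPM at the edge of animal 6 wound A and at 0.909 to 2.03 CPM at the other edges. In the center it was at 0 to 1.21 CPM, so the ranges overlapped. CXCL8 and CXCL2, which draw neutrophils, were not called. CXCL8 ranged from 14.2 to 474 CPM (median 142) at the edge and from 31.1 to 1293 CPM (median 211) in the center, against 0 to 0.109 CPM in the skin, and its log2 fold change was -0.93 ± 0.71 (SE), adjusted p = 0.346. Without the muscle wounds CXCL8 and CXCL2 were called toward the center (log2 fold changes of -1.95 and -1.84, adjusted p of 0.0390 and 0.0149).

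Of 20 tested neutrophil markers 4 were higher at the edge and 7 in the center, or 4 and 3 without the block, where 18.0% and 16.4% of all genes were. S100A8, S100A9 and S100A12, calcium-binding alarmins, were higher at the edge by 2.79, 2.52 and 1.55, and LTF, lactoferrin, by 6.18. S100A9 ranged from 273 to 845 CPM (median 579.8) at the edge, from 43.9 to 149.5 CPM (median 93.5) in the center and from 0.952 to 4.81 CPM in the skin. All 6 edges were above all 6 centers. TREM1, ITGAM and CSF3R, a receptor, an integrin and the receptor for the growth factor CSF3, were higher in the center, at -1.51, -1.37 and -1.04. ITGAM was at 14.5 to 47.1 CPM (median 27.0) in the center, 5.39 to 16.6 CPM (median 10.4) at the edge and 0.534 to 1.37 CPM in the skin. Activated keratinocytes are also known to express S100A8 and S100A9, and the samples do not separate the cell types.

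Antimicrobial genes leaned to the edge, with 7 of 11 tested higher there and 1, LCN2 (-0.80), in the center, or 7 and 2 without the muscle wounds. Besides the S100 genes and LTF these were PGLYRP3 (9.12) and PGLYRP4 (5.09), peptidoglycan-binding proteins of skin, and DEFB1 (4.26), a beta-defensin. PGLYRP3 was at 17.6 to 28.5 CPM (median 21.3) at the edge and had 4 counts over the 6 centers. LTF varied widely between wounds, from 0.564 to 369 CPM (median 46.5) at the edge, and overlapped the center (0 to 1.54 CPM (median 0.902)).

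Monocyte and macrophage markers were higher in the center in 6 of 24 genes and at the edge in 1, where 16.4% and 18.0% of all genes were. FCN1, ficolin 1 of monocytes, was at 24.6 to 177 CPM (median 50.1) in the center and 9.36 to 37.3 CPM (median 17.8) at the edge (-1.66 ± 0.45 (SE), adjusted p = 0.0227), and at 0.317 to 0.593 CPM in the skin. APOE, a lipoprotein of macrophages that fat and epidermis also express, was higher in the center, at -1.27, and C1QA, C1QB and C1QC, the C1q subunits that macrophages make, at -0.62, -0.66 and -0.64. CTSL, a lysosomal protease, was higher at the edge (0.82). The scavenger receptor CD163, CD14 and CD68 were not called, at -0.75, -0.56 and 0.33. SPP1, osteopontin, was not called either and ranged from 306 to 1775 CPM (median 482) at the edge and from 65.1 to 1609 CPM (median 332) in the center, both above the 16.1 to 25.8 CPM of the skin. Of 22 tested T and NK cell genes 1 was called, BCL11B (3.91), which keratinocytes also express, and CD3E, part of the T cell receptor complex, was at -0.041. Of 11 B and plasma cell genes MS4A1 was higher in the center (-1.11), against 2 without the muscle wounds. Of 9 tested genes of red cells and platelets edgeR called 0, with 1 at the edge and 2 in the center at an unadjusted p below 0.05, and DESeq2 called 1 and 2.

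Complement leaned to the center, with 13 of 23 genes higher there and 1, MASP1 (1.72), at the edge. The gene matched to C4A was at 366 to 805 CPM (median 603) in the center, 64.1 to 169 CPM (median 151) at the edge and 55.0 to 60.1 CPM in the skin (-2.14 ± 0.19 (SE), adjusted p = 1.16e-04), with no overlap. C7, of the membrane attack complex, differed by -1.94, and CFB, of the alternative pathway, by -0.99. C3, on which the pathways meet, was not called, at 0.36. In the interferon response 3 of 32 genes, among them IFI6 (-0.99) and IRF1 (-0.84), were higher in the center and none at the edge, below the 16.4% over all genes. Without the muscle wounds 1 of the 32 was called, and IFI6 was not (adjusted p = 0.0750). The list summed to 6786 CPM at the edge of animal 6 wound A, above every other sample of day 2, while the other 5 edges lay between 1239 and 1938 CPM and the centers between 2194 and 4866 CPM.

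Vessels were traced by 22 blood endothelial genes, of which 18 were higher in the center and none at the edge, with a median of -1.02 and 16 called without the muscle wounds. Their sum was 1613 to 2711 CPM in the center, 873 to 1129.5 CPM at the edge and 607 to 829 CPM in the skin, with no overlap between these 3. KDR, the main VEGF receptor, was at 123 to 241 CPM (median 143) in the center and 45.4 to 58.7 CPM (median 53.2) at the edge (-1.64 ± 0.18 (SE), adjusted p = 3.41e-04). SELP, which captures leukocytes on activated endothelium, and ANGPT2, which loosens vessels, were higher in the center, at -1.74 and -1.35. SELP was at 11.9 to 90.4 CPM (median 38.3) in the center and 1.01 to 2.73 CPM in the skin. The junction genes CDH5 and PECAM1 had -1.18 and -0.90. VWF, another endothelial gene, was low in all samples (no more than 2.51 CPM) and not called. Of 7 lymphatic genes LYVE1, which macrophages also carry, was higher in the center (-1.29), and PROX1 and FLT4, which define these vessels, were not called (0.23 and 0.044). Of 16 genes of pericytes and smooth muscle 7 were higher in the center, among them KCNJ8 (-1.43) and PDGFRB (-0.73), and NOTCH3, which basal keratinocytes and pericytes share, was higher at the edge (1.53). ACTA2, the actin of smooth muscle and myofibroblasts, was not called (-0.21) and in both locations its median (252 CPM at the edge and 299 CPM in the center) was below the 348 to 674 CPM of the skin.

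Fat genes had the highest share toward the center among the lists. Of 17 tested adipocyte genes 15 were higher in the center and none at the edge, with a median of -2.39, and -2.42 without the muscle wounds. The list summed to 6132 to 25352 CPM in the center, 2463 to 7475 CPM at the edge and 2030.4 to 4331 CPM in the day 0 skin. ADIPOQ (ENSSSCG00025002178), the hormone adiponectin, ranged from 889 to 5472 CPM (median 2839) in the center, from 253 to 939.9 CPM (median 427) at the edge and from 111 to 573 CPM in the skin. Its ranges overlapped, but the center was higher in 6 of 6 wounds (-2.43 ± 0.31 (SE), adjusted p = 6.77e-04). GPD1, an enzyme of triglyceride synthesis, LEP, leptin, and LPL, lipoprotein lipase, were higher in the center, at -2.75, -2.65 and -2.51, without overlap. FASN and SCD, the lipogenic enzymes, which sebaceous glands and keratinocytes also use, were not called, at -0.94 and -0.86.

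**Figure D4:**
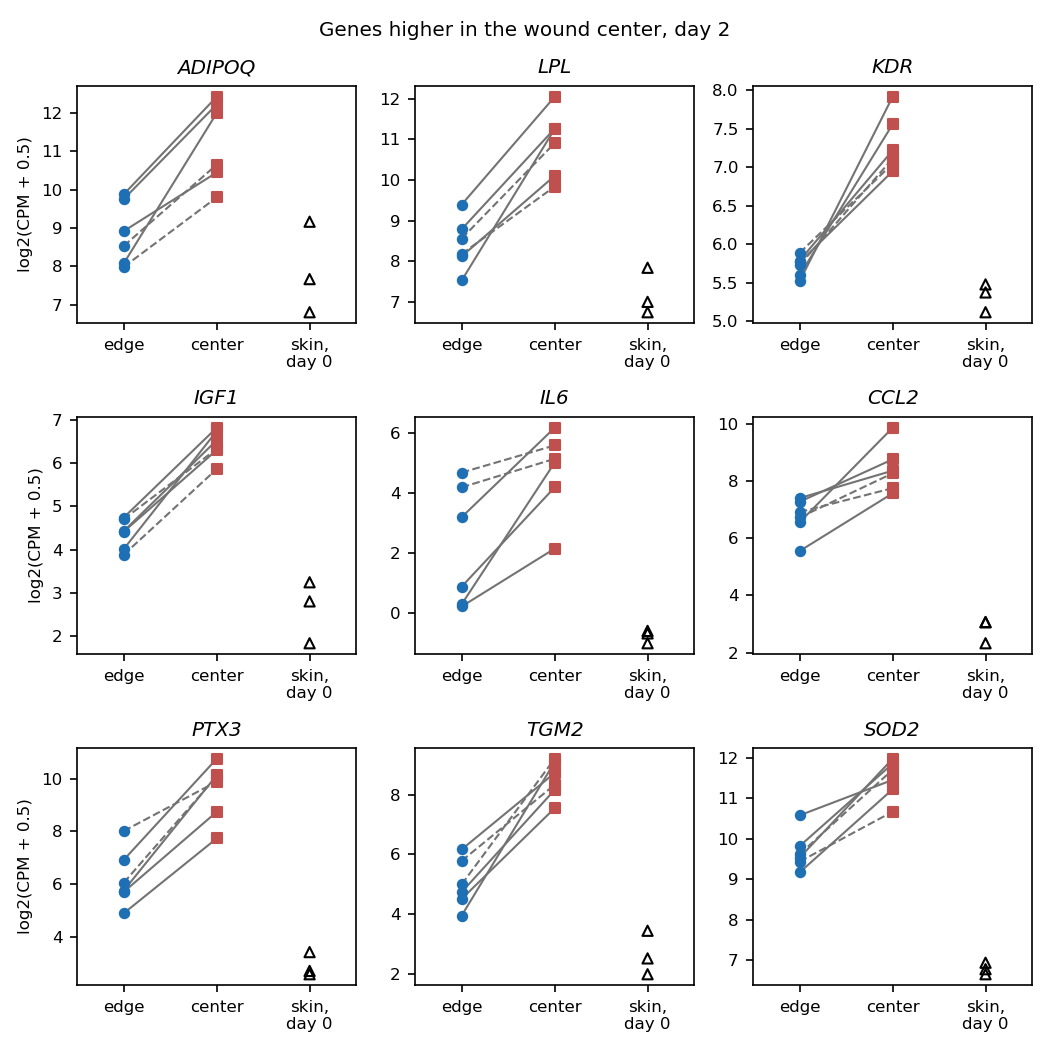
Levels of 9 genes higher in the center. Each line joins the edge and the center of 1 wound, the vertical axis is log2(CPM + 0.5), wounds with muscle RNA in the center are drawn with dashed lines, and open triangles are the day 0 skin of animals 4, 5 and 6. The center was higher in 6 of 6 wounds for ADIPOQ, LPL, KDR, IGF1, IL6, CCL2, PTX3, TGM2 and SOD2.

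Fibroblast and matrix genes were divided. Of 20 fibroblast genes 6 were higher in the center, COL5A2 (-1.41), FBLN2 (-1.21), PDGFRA (-1.10), DPT (-1.09), COL5A1 (-0.85) and COL6A3 (-0.74), and none at the edge. Over all genes 16.4% were higher in the center and 18.0% at the edge. Without the muscle wounds 5 were called toward the center and 3, PI16 (1.79), MFAP5 (0.95) and THY1 (0.53), toward the edge. These 3 genes were chosen after their values were seen. COL1A1 and COL3A1, the main collagens of the dermis, were among the genes with the largest share of counts at both locations and were not called, at 0.46 and -0.19. COL1A1 ranged from 5387 to 23574 CPM (median 13367) at the edge and from 4861 to 12179 CPM (median 8904) in the center, and in the skin from 20970.5 to 50992 CPM. COL5A2, by contrast, was at 1321 to 2285 CPM (median 1695) in the center and 481 to 872 CPM (median 649) at the edge, with no overlap. POSTN, a matricellular protein of the papillary dermis, was higher at the edge (2.01 ± 0.29 (SE), adjusted p = 0.00122), at 1002 to 3534 CPM (median 1758) against 196 to 1013 CPM (median 422), and both were below the 3678 to 7058 CPM of the skin. TNC and THBS1, matricellular proteins of early wounds, were higher in the center, at -1.15 and -0.86, with TNC at 294 to 4688 CPM (median 1121) in the center and 393 to 838 CPM (median 529.7) at the edge and with ranges that overlapped. Neither was called without the muscle wounds (adjusted p of 0.158 and 0.125). FN1, fibronectin, was not called (-0.15), and CD44, the hyaluronan receptor, was higher at the edge (1.13). TNFAIP6, which modifies hyaluronan, was higher in the center (-1.41).

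Of 30 tested matrix proteases and inhibitors 4 were higher at the edge and 9 in the center, against 18.0% and 16.4% of all genes. MMP1 (ENSSSCG00025039149), the collagenase that migrating keratinocytes use on dermal collagen, ranged from 109 to 481 CPM (median 299) at the edge, from 3.04 to 11.3 CPM (median 7.22) in the center and from 0.317 to 0.593 CPM in the skin. All edges were above all centers (5.25 ± 0.14 (SE), adjusted p = 2.10e-06). MMP13, MMP12 and MMP7 were higher at the edge by 7.07, 5.57 and 4.64. The protease genes ADAMTS4 (-1.87), an aggrecanase, and ADAMTS16 (-2.95) were higher in the center, the latter not without the muscle wounds (adjusted p = 0.0748). MMP9, the gelatinase of neutrophils and keratinocytes, was not called (1.90 ± 0.70 (SE), adjusted p = 0.0696), and its inhibitor TIMP1 neither (-0.92). Of 23 tested genes of coagulation and fibrinolysis 4 (17.4%) were higher at the edge and 7 (30.4%) in the center, against 18.0% and 16.4% of all genes. TFPI, the tissue factor pathway inhibitor, and the protease receptor F2RL1 were higher at the edge (3.55 and 4.09), while F5, PLAT and THBD, coagulation factor V, the tissue plasminogen activator and thrombomodulin, were higher in the center (-1.45, -1.30 and -1.14).

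Of 31 tested hypoxia and glycolysis genes 8 were higher at the edge and 5 in the center, where 18.0% and 16.4% of all genes were. HK2, the inducible hexokinase, was at 116 to 646 CPM (median 215) in the center and 42.0 to 99.1 CPM (median 54.4) at the edge (-2.01 ± 0.26 (SE), adjusted p = 7.85e-04), and HIF1A, the oxygen-regulated subunit, was higher in the center, at -0.73. Of other genes on the list, EGLN3 (3.12), NDRG1 (1.53) and CA12 (1.50) were higher at the edge, and PGK1 and LDHA were not called (-0.14 and -0.19). GAPDH, of glycolysis, was at 32967 and 8156 CPM in the 2 centers with muscle RNA and between 1308 and 1745 CPM in the other 10 libraries. It was not called (-0.89), and its log2 fold change without the muscle wounds was 0.093. Among 27 genes of oxidative stress defense 7 were higher at each location, and without the muscle wounds 3 at the edge and 7 in the center. SOD2, the mitochondrial superoxide dismutase, was at 1626 to 4019 CPM (median 3066) in the center, 577 to 1529 CPM (median 765) at the edge and 101 to 123 CPM in the skin, with no overlap between the locations (-1.83 ± 0.23 (SE), adjusted p = 6.44e-04). GPX2, an epithelial glutathione peroxidase, NQO1, a quinone reductase, and the metallothioneins MT1A and MT2A were higher at the edge by 5.48, 2.01, 2.65 and 1.98. NQO1 was not called without the muscle wounds (adjusted p = 0.0536). Of 28 immediate early genes 5 (17.9%) were higher at the edge and 3 (10.7%) in the center, or 3 and 2 without the muscle wounds. Neither share was above that over all genes (18.0% and 16.4%). KLF4 and EGR3, of which the first is also a factor of epidermal differentiation, were higher at the edge (2.55 and 3.05), FOS was higher in the center (-1.21), and EGR1 was not called (-0.34).

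The 12 named genes with the largest differences toward the center were KLHL31, a gene matched to DMD (ENSSSCG00025074699), RPH3A, PPP1R1A, FBP2, TGM2, PROB1, MYBPH, NPTX1, PTX3, RDH5 and LCN12. TGM2 (ENSSSCG00025026306), tissue transglutaminase, which crosslinks matrix proteins, was at 187 to 587 CPM (median 371) in the center, 15.1 to 71.5 CPM (median 29.0) at the edge and 3.50 to 10.4 CPM in the skin (-3.52 ± 0.39 (SE), adjusted p = 3.34e-04). PTX3 (ENSSSCG00025028813), a secreted pentraxin of innate defense, was at 213 to 1719 CPM (median 1013) in the center, 29.5 to 259 CPM (median 60.2) at the edge and 5.57 to 10.3 CPM in the skin (-3.38 ± 0.36 (SE), adjusted p = 2.56e-04), with the center higher in 6 of 6 wounds and ranges that overlapped. NPTX1, a pentraxin first known from neurons, was at 101 to 239.9 CPM (median 159.5) in the center, 4.43 to 59.6 CPM (median 15.2) at the edge and 0.273 to 6.82 CPM in the skin (-3.39 ± 0.45 (SE), adjusted p = 8.52e-04). FBP2, a gluconeogenic enzyme of muscle, RDH5, a retinol dehydrogenase, and LCN12, a lipocalin, had -3.52, -3.35 and -3.34. RPH3A (-3.83) was not called without the muscle wounds (adjusted p = 0.101). Apart from these stand KLHL31, DMD, PPP1R1A, PROB1 and MYBPH, which are not on the muscle list but for which both centers with muscle RNA were above the other 4 centers, so that their place among the 12 includes those centers. MYBPH, a myosin-binding protein, was at 838 and 199.6 CPM in those centers, but its log2 fold change without them was still -2.11 (adjusted p = 0.00518), and those of KLHL31, PPP1R1A and PROB1 were -2.85, -2.39 and -2.63. Over all genes higher in the center, 158 of 2404 had both muscle centers above the other 4.

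The contrast between edge and center was then compared with that on day 4, in other wounds of the same animals, in a single fit with the wounds as blocks. Of 15541 genes tested, 98 (0.631%) had a contrast that differed between the days, 78 (0.502%) with a larger log2 fold change toward the edge on day 2 and 20 (0.129%) with one more toward the center. Without the block these were 18 and 4, and DESeq2 called 496 and 514. Without the muscle wounds 53 of the 98 were called again. Among named genes at a mean of at least 5 CPM the largest difference was that of BNC1 (ENSSSCG00025000151), basonuclin of proliferating keratinocytes, which was higher at the edge by 8.72 on day 2 and by 4.40 on day 4 (difference 4.32 ± 0.72, adjusted p = 0.0300). COL7A1, the collagen of anchoring fibrils, had 6.47 and 2.55 (difference 3.92 ± 0.68, adjusted p = 0.0319), WNT7B 7.17 and 3.46, and MMP1 5.30 and 1.81. CXCL13, a B cell chemokine, was higher at the edge on day 2 and in the center on day 4 (2.01 and -1.82, difference 3.82 ± 0.71, adjusted p = 0.0395), while PLEKHG4 was higher at the edge on day 2 (3.68) with -0.082 on day 4. For HK2, RGS4, TLN2 and CNTFR the contrast was more toward the center on day 2. HK2 had -1.97 on day 2 and 0.38 on day 4 (difference -2.35 ± 0.32, adjusted p = 0.0201). KIF21A, a kinesin, had 2.00 and 3.97. Without the muscle wounds the differences of COL7A1, WNT7B, MMP1, KIF21A, TLN2 and DSC1 were not called, and without the block those of CXCL13, KIF21A, RGS4, TLN2, CNTFR, DSC1, MKI67, PRC1 and TPX2 were not.

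**Figure D5:**
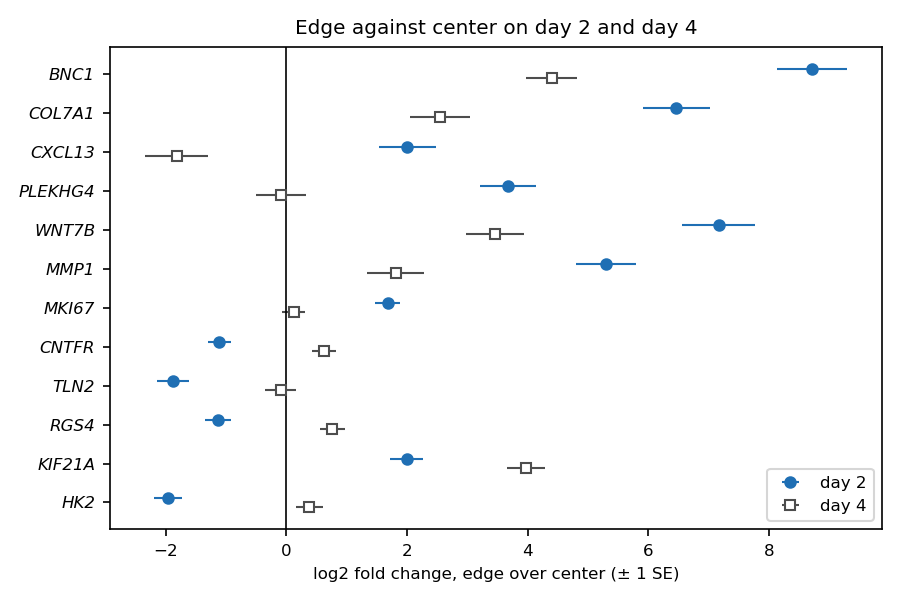
Contrast between edge and center on day 2 and day 4 for 11 genes with large differences between the days and for MKI67. Points are log2 fold changes of edge over center from the joint fit, bars are ± 1 SE, filled circles are day 2 and open squares day 4. BNC1 and COL7A1 lie further toward the edge on day 2, and HK2, RGS4 and CNTFR lie below 0 on day 2 and above 0 on day 4.

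MKI67, at 1.68 on day 2 in this fit, had a log2 fold change of 0.12 on day 4 (difference 1.56 ± 0.28, adjusted p = 0.0329). Of the 39 cell cycle genes edgeR called 3 in this comparison, MKI67, PRC1 and TPX2, none of them without the block. An unadjusted p below 0.05 was found for 32 of the 39, and DESeq2 called 25. The list's median was 0.99 on day 2 and -0.26 on day 4 in this fit. The epidermal lists stayed high at the edge on both days, with a median of 5.53 for basal and 7.53 for suprabasal markers on day 4, and the fat list had -0.69 there against -2.35 on day 2. For the 17 fat genes edgeR called 0 contrasts different between the days, with 15 at an unadjusted p below 0.05, and DESeq2 called 9. DSC1 was the only one of 26 suprabasal genes whose contrast edgeR called different (difference 2.34 ± 0.40, adjusted p = 0.0300). For 9 of the 26 the unadjusted p was below 0.05, and DESeq2 called 3.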

How the data were processed

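RNA was extracted from whole wound tissue and poly(A) libraries were sequenced by a service company. The deposited table holds raw read counts per gene, which the authors obtained from paired reads filtered for adapters and quality, aligned to a reference genome and counted, with the aligner, the counter and the genome build not given in the sources used here. The count table's 30461 genes carried 12300 names from the table's name column, 9387 from the protein match in its description column, and 8774 had no name. A second deposited table, of FPKM values, was not used. Close copies and overlapping genes can share reads.

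Edge and center samples were paired by the animal and wound given in the labels. As a check, deviations from the location means correlated between the samples of a wound by 0.0703 to 0.358 (Pearson's r across genes). With other wounds, the second wound of the same animal among them, the average was -0.0619 to -0.0161. Subtracting the location means largely forces this average below 0 where the first value is above 0, so it adds no support for the pairing. Differences were tested by the quasi-likelihood method of edgeR 4.0.16 under R 4.3.3, with the wound as a block, TMM scaling, the filterByExpr filter at its minimum of 10 counts and a Benjamini-Hochberg threshold of 0.05, and the comparison with day 4 as an interaction over 24 samples and 12 wound blocks. Totals of 14378320 to 22827155 counts per sample limit the precision of genes with few counts, and the floor of 3 counts covers counting error only. In counts simulated for the day 2 comparison, 197 of 14361 genes were changed, by 2-fold or 4-fold. There edgeR recovered 40.8% of 2-fold and 85.9% of 4-fold changes with 8.09% false calls, and DESeq2 1.42.0 62.2% and 96.0% with 26.4%. In the data 34.4% of genes were called on day 2, a far larger share, so these rates are not those of the calls above. For the comparison with day 4, with 197 of 15314 genes changed, the simulation gave 40.8% and 74.7% with 4.20% for edgeR, and 57.1% and 82.8% with 14.3% for DESeq2.

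The members, the lists and the tests were chosen with earlier results of these data known. Named genes were, outside the skeletal muscle list, the 12 with the largest change in each direction with the same sign in 6 of 6 wounds and a mean of at least 5 CPM, from each list the 3 called genes with the largest change and the 2 with the highest level, with other list members where a count turned on them, the 6 genes with the largest difference from day 4 in each direction and the genes with the largest share of counts. Alternatives were the fit without the block, DESeq2, library totals without TMM, TMM without muscle genes, no filter, animals as units, days 2 and 4 in one fit, and fits without the wounds with muscle RNA or without each wound. Some genes that the rule takes in are not reported here. No sequence or coordinate is given.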

Additional observations from a re-analysis of the deposited data

Results flagged for a closer look

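Single samples stood apart from the other 5 of their location in 11 of 188 groups examined by Dixon's ratio on the log2 scale, where chance alone gives about 1 in 20. Of these, 6 were the center of animal 5 wound A. That center held 105 CPM of KRT10, 3.08 CPM of DSC1 and 1.78 CPM of FGFBP1, the highest of the 6 centers in each case, and 16.1 CPM of MKI67, the lowest center. The remaining 2, PGLYRP3 and SERPINB12 at 0.144 CPM each, rest on few counts beside centers at or near 0, so that the ratio says nothing about them. At the edge of animal 6 wound A the interferon response genes summed to 6786 CPM against a median of 1794 CPM over the 6 edges. C4A was at 64.1 CPM at the edge of animal 5 wound A (median 151 CPM), CD207 at 0.727 CPM at the edge of animal 4 wound A (median 2.87 CPM) and SLC6A14 at 14.2 CPM at the edge of animal 6 wound L (median 24.8 CPM), all the lowest of their edges. IL1R1 was at 119 CPM in the center of animal 4 wound A, the lowest center (median 196 CPM).

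The contrast between edge and center differed between day 2 and day 4 for 98 genes by the interaction test of edgeR. The log2 differences toward the edge on day 2 were 4.32 for BNC1, 3.92 for COL7A1, 3.82 for CXCL13, 3.76 for PLEKHG4, 3.70 for WNT7B, 3.49 for MMP1, 2.34 for DSC1, 1.56 for MKI67, 1.40 for TPX2 and 0.826 for PRC1. Those toward the center were -2.35 for HK2, -1.98 for KIF21A, -1.90 for RGS4, -1.79 for TLN2 and -1.73 for CNTFR.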

How the results depend on the processing

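The wounds came from 3 animals, the tissue was not separated into cell types, and genes with few counts were measured with little precision. With the wounds of an animal summed, 2291 genes were higher at the edge and 1592 in the center, and leaving out each wound in turn gave 2162 to 2606 at the edge and 1697 to 2344 in the center. In the paired design, the fit without the replicate block gave 2606 and 2592 genes, and it shared 4623 calls with the 5035 of the paired fit. DESeq2 gave 3234 and 2801 and a single fit of days 2 and 4 gave 3765 and 2968, and the other alternatives lay between 2265 and 2629 at the edge and between 1746 and 2574 in the center. No scaling moved the median log2 fold change of all genes by more than 0.0469. The difference between day 2 and day 4 depended more on the settings. Without the replicate block 18 contrasts were more toward the edge on day 2 and 4 more toward the center, DESeq2 gave 496 and 514, and library totals without TMM gave 74 and 10. Without the wounds with muscle RNA these were 72 and 27. Of the 98 genes called in the main fit, 53 were called again without these wounds and 20 without the block. The cause was not tested. Of the 210 genes named and called on day 2, 157 were called under every one of the 14 alternatives that could test them, and 176 in each of the 6 fits without a wound. Leaving out 1 wound ended the call of 22 named genes for animal 4 wound A, 10 for animal 4 wound L, 21 for animal 5 wound A, 15 for animal 5 wound L, 15 for animal 6 wound A and 21 for animal 6 wound L, together the 34 genes AURKA, BUB1, C1QC, COL5A1, COL6A3, CSF3, CSF3R, CXCL13, FCN1, FOS, FOXM1, IFI6, IL1A, IRF1, KLHL31, LIF, LRIG1, MASP1, MC5R, MS4A1, MYBPH, MYL3, NGFR, NQO1, PLK1, PPP1R1A, PRX, PTGS2, RPH3A, RRM2, TGFB3, THBS1, TNC and TPX2. None of these called genes changed direction under an alternative. Over 39 list medians and 14 alternatives, 9 values moved by more than the SD between wounds and 21 changed sign, the latter in 6 lists with medians between -0.22 and 0.094 on the log2 scale.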
